A study of Mus musculus with 2 samples.

Results

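Glucose breakdown and the response to low oxygen were followed through 31 genes, listed by name, in CD11b-selected cells of the mouse cochlea. No cut on a measured value was used for the list, but it was drawn up with earlier results of these data known. Each of the 31 symbols matched 1 row of the 48709 genes in the deposited tables. The genes fall into glucose transporters, hexokinases, upper and lower glycolysis, lactate production and export, flux regulators, oxygen sensors and targets of hypoxia. The groups were electrode-implanted and non-implanted cochleae with 1 library each, both from mice labelled C57BL/6J/B6 with the genotype CX3CR1+/GFP Thy1+/YFP, males and females pooled, taken 33 days after implantation according to the series design. All mice of both groups thus carried a GFP reporter in place of 1 Cx3cr1 allele and a YFP reporter driven by Thy1, and the cells of both were selected on beads that bind CD11b, a surface protein of myeloid cells. The labels do not say how many animals were pooled, whether the non-implanted cochleae were the opposite ears of the same animals, or whether the electrode released a drug. With 1 library per group there are no replicates, so no test was made and every interval given is a 95% interval for counting error alone, which covers neither the spread between animals nor that between cells.

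Glycolysis turns glucose into pyruvate in a chain of enzymes, from glucose uptake by transporters such as Slc2a1 and Slc2a3 and trapping by hexokinases to the pyruvate kinase Pkm. Lactate dehydrogenase A (Ldha) then makes lactate, which the transporter Slc16a3 carries out of the cell. Hif1a encodes the oxygen-regulated subunit of the transcription factor HIF-1, the prolyl hydroxylases encoded by Egln1 and Egln3 mark that subunit for destruction when oxygen is present, and HIF-1 binds a short core motif near many glycolytic genes and near Vegfa, Bnip3 and other targets. Neutrophils and inflammatory macrophages are known to rely strongly on glycolysis, and a transcript level does not measure flux, oxygen or HIF protein.

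The core motif was looked for as the letters ACGTG or GCGTG on either strand in RefSeq promoter windows (GRCm38.p6) from 250 bases before to 50 bases after each start site, with a palindromic CACGTG counted on both strands. Windows were matched for 28 of the 31 genes, and those for Bnip3l, Ndrg1 and Slc2a3 were not matched. Of 40 member windows 32 (80%) held a motif, against 43.8% of all 32851 windows. The member windows were also richer in G and C, at a mean of 62.8% against 53.8%. Among windows in the members' middle GC range, 63.1% held a motif. The 4 windows printed are those of genes on which the cell comparisons turn, chosen after the levels had been seen, with the motifs of either strand in capitals: Pgam1 (chr19:41911621-41911920, plus strand, 3 motifs), Bnip3 (chr7:138909457-138909756, minus strand, 5 motifs), Ldha (chr7:46845554-46845853, plus strand, 7 motifs, the first of 2 windows of this gene) and Slc16a3 (chr11:120948817-120949116, plus strand, 2 motifs). Each holds upstream sequence and the first bases of the transcript.
Pgam1: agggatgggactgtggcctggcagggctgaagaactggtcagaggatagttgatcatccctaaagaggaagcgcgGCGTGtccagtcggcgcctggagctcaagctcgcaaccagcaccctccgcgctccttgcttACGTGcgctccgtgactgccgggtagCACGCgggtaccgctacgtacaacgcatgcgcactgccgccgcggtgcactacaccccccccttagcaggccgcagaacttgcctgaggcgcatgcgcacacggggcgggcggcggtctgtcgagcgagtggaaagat
Bnip3: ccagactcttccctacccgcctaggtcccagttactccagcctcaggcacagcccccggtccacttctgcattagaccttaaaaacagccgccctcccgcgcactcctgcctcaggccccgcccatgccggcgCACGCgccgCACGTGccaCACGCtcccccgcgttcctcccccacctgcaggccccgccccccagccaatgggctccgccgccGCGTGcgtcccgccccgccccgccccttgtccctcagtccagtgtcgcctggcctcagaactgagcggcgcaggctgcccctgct
Ldha: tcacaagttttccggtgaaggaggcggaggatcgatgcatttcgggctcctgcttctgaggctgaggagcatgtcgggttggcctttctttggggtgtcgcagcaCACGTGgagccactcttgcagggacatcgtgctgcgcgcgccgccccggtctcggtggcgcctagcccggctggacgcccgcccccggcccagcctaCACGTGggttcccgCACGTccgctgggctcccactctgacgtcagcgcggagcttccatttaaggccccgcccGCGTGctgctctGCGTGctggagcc
Slc16a3: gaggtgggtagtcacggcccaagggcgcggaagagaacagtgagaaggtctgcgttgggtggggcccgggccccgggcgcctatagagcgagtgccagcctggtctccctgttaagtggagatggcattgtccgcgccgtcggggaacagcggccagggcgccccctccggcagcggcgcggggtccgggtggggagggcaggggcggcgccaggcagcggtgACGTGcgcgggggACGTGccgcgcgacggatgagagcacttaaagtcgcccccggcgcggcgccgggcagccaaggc
A match shows only that these letters are present. Of the 2 Vegfa windows, 1 held 2 motifs and 1 held none, and the single windows of Gpi1 and Tpi1 held none.

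The deposited tables hold 3231 implanted and 3572 non-implanted barcodes, numbers that match the range of targeted cells in the series design, and 3149 and 3513 passed a filter on detected genes and mitochondrial share. After likely doublets were removed, 3065 and 3411 cells remained with 18534429 and 20381236 unique molecular identifiers (UMIs, each standing for 1 captured RNA molecule). The 31 genes held 0.417% and 0.418% of those UMIs. Only 5 barcodes were shared by the libraries. Cells were clustered without the 31 genes, so the values of these genes did not themselves form the clusters. Other genes that vary with them were allowed in the clustering, so differences between clusters are not independent of it. The 4 classes large enough to compare were neutrophil-like (1522 implanted and 1790 non-implanted cells), granulocyte precursor-like (760 and 963), monocyte-like (309 and 266) and macrophage-like (275 and 230). Erythroid-like (74 and 40), B cell-like (37 and 32) and osteoclast-like cells (11 and 29) are described by level, and 2 clusters stayed unnamed, 1 of them led by Ptgds, Apod and Dct. The erythroid-like, B cell-like and Ptgds-led cells are not of the myeloid kind that the CD11b selection aims at.

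Levels of several of the genes differed between classes. Levels are given as UMIs per 1e6 UMIs of the class (CPM). Slc2a3, a high-affinity glucose transporter, stood at 610.0 and 725 CPM in implanted and non-implanted neutrophil-like cells, 178 and 238 in their precursors, 62.3 and 125 in macrophage-like and 57.6 and 70.04 in monocyte-like cells. Slc16a3 stood at 590.1 and 551 CPM in neutrophil-like cells and between 57.1 and 142 CPM in the other 3 large classes. For both transporters the neutrophil-like levels of the 2 libraries lay above every other class.

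Among the enzymes, Gpi1, which interconverts the phosphates of glucose and fructose, was at 768 and 736 CPM in granulocyte precursor-like cells and at 296 and 274 CPM in macrophage-like cells, the lowest of the 4 large classes. Hif1a was at 40.1 and 37.3 CPM in the precursors, against 130 to 273 CPM in the other 3. P4ha1, a hydroxylase of collagen prolines, was at 126 and 113 CPM in macrophage-like cells and at 5.80 and 12.96 CPM in neutrophil-like cells. Adm, which encodes the vasoactive peptide adrenomedullin, had no UMI in any of the 4 large classes. Gapdh and Pgk1 had at most 8.44 and 26.8 CPM in any named class and library, low for genes that every cell uses. The last 400 bases of the Gapdh models share runs of 60 bases with 139 other gene models, so the Gapdh value is uncertain, and the same holds for Eno1 (6 other models), the 2 genes in which over 50% of the 60-base runs are shared. Gpi1 (18 models, 25.7% of runs), Bnip3 (3, 19.8%), Pkm (2, 12.1%), Ldha (9, 10.5%), Tpi1 (1, 8.50%) and Aldoa (4, 5.77%) share smaller parts. No such sharing was found for Pgk1, whose low value has no measure beside it here.

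**Figure D1:**
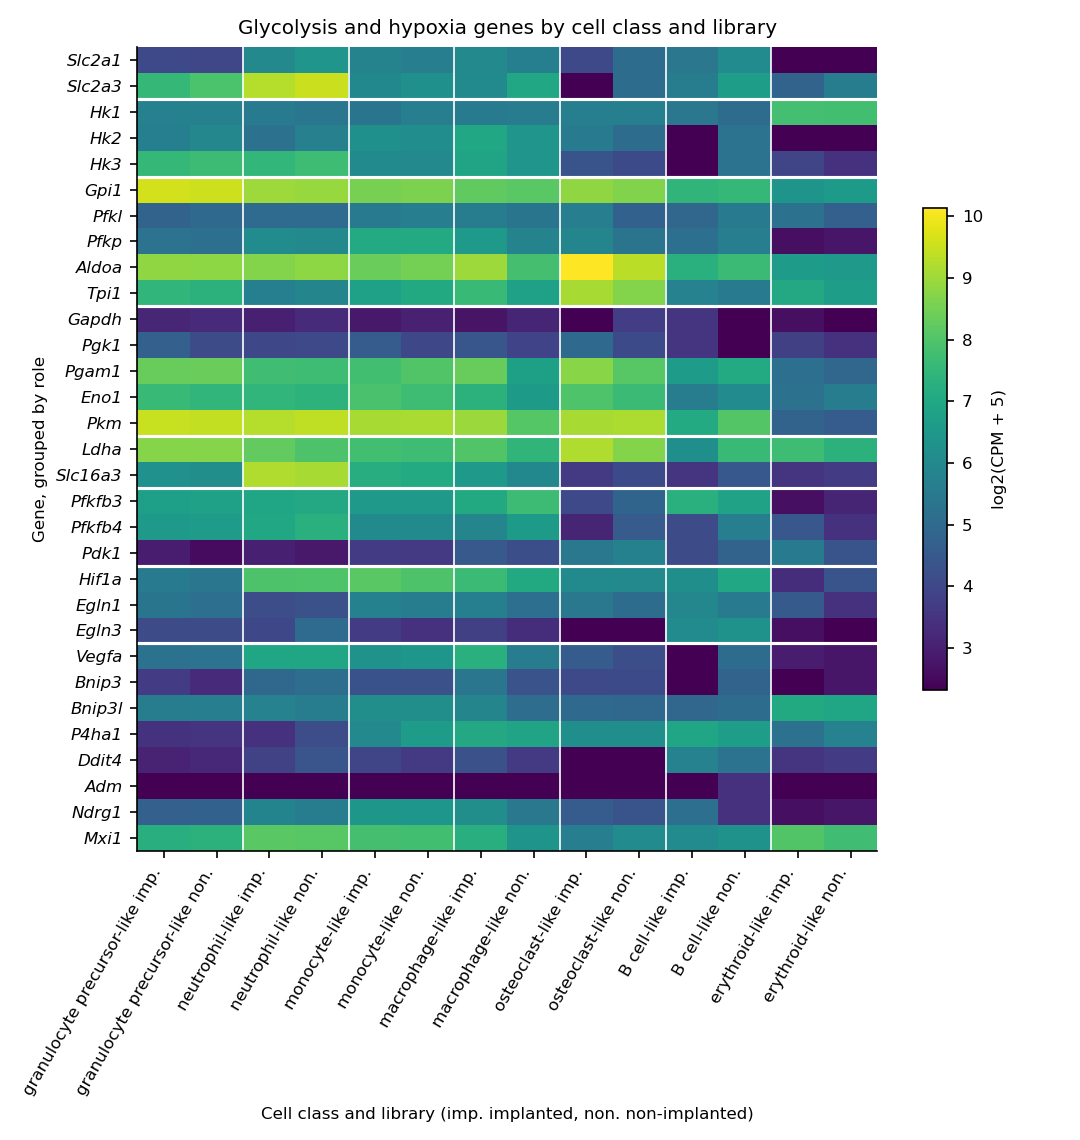
Level of each of the 31 genes, as log2(CPM + 5) in colour, in 7 cell classes and 2 libraries, with genes grouped by role in rows. The 2 columns of a class look alike for most genes, Slc2a3 and Slc16a3 are brightest in neutrophil-like cells, and the erythroid-like columns are dark except for Hk1, Bnip3l, Mxi1 and a few enzymes.

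The macrophage-like class was the one in which many of the 31 genes differed between implanted and non-implanted cochleae. Of the 29 genes with at least 20 UMIs in this class, 14 were at least 1.5-fold higher in the implanted library on the scale of log2(CPM + 5) and 3 were at least 1.5-fold lower, while 8.47% and 9.25% of all 9756 genes counted were past the same folds. The median log2 ratio of the 29 genes was 0.58 and that of all genes -0.03. Summed over the 31 genes, the level was 3890 CPM in the implanted and 2554 CPM in the non-implanted cells. Gapdh and Adm were below 20 UMIs.

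Upper and lower glycolysis held most of the higher enzymes. The phosphoglycerate mutase Pgam1 had 314 CPM in implanted and 104 CPM in non-implanted macrophage-like cells, a ratio of 3.03 (2.51 to 3.68). Aldolase A (Aldoa) had 507 and 222 CPM, a ratio of 2.29 (2.00 to 2.62). Pkm had 498 and 265 CPM, a ratio of 1.88 (1.66 to 2.14). Each of these intervals lies above 1.5. Triosephosphate isomerase (Tpi1) had 186 and 107 CPM, the platelet-type phosphofructokinase Pfkp 88.9 and 51.9 CPM, and the enolase Eno1 159 and 90.9 CPM. Gpi1 (296 and 274 CPM) and the liver-type phosphofructokinase Pfkl (44.7 and 36.1 CPM) stayed within 1.5-fold, so the steps of the chain did not differ by the same amount.

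The end of the chain was closer to the limit of 1.5-fold. Ldha had 254 and 167 CPM, a ratio of 1.52 (1.29 to 1.80), and Slc16a3 had 88.9 and 57.1 CPM, a ratio of 1.56 (1.18 to 2.07). Hexokinase 2 (Hk2), the inducible form, lay just under the limit at a log2 ratio of 0.58, with 121 and 78.9 CPM, and 25.7% of its non-implanted UMIs came from 1 cell. Hk3 had 112 and 79.7 CPM and Hk1 40.2 and 44.3 CPM.

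A glucose transporter and 2 of the 3 regulators of flux were lower. Slc2a3 was lower in implanted macrophage-like cells, at 62.3 against 125 CPM, a ratio of 0.50 (0.39 to 0.64). Pfkfb3 and Pfkfb4, which make and remove the activator of phosphofructokinase, had 130 against 199 CPM and 53.8 against 90.9 CPM, ratios of 0.65 (0.55 to 0.78) and 0.59 (0.45 to 0.78). Slc2a1, the transporter best known as a HIF target, had 58.3 and 46.6 CPM, and Pdk1, a kinase that holds back pyruvate dehydrogenase, 17.6 and 13.5 CPM, both within 1.5-fold. Neutrophil RNA moved with Slc2a3: the 15 neutrophil markers summed to 32797 CPM in implanted and 43409 CPM in non-implanted macrophage-like cells, none was at 0, and S100a8 among them had 13690 and 19039 CPM. The part of these transcripts in the Slc2a3 difference was not tested. Without the shallow macrophage-like cluster the log2 ratio of Slc2a3 was -1.06, and with 2 times as many doublets removed it was -0.42.

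Of the oxygen sensors, Hif1a had 194 and 130 CPM, a log2 ratio of 0.56 and just under the limit, and Egln1 had 46.4 and 30.8 CPM. Among the hypoxia targets, Vegfa, which encodes a growth factor for blood vessels, had 149 CPM in implanted and 43.6 CPM in non-implanted macrophage-like cells, a ratio of 3.43 (2.57 to 4.64) and the highest log2 ratio of the 29 genes. Bnip3 and Bnip3l, receptors for the removal of mitochondria, had 36.8 and 15.0 CPM and 53.2 and 29.3 CPM. Mxi1, an antagonist of Myc, had 143 and 77.4 CPM. Ndrg1 had 67.4 and 38.3 CPM, but 1 cell held 30.3% of its implanted UMIs, and without the cell richest in the gene in each library its log2 ratio was 0.46, inside 1.5-fold. Ddit4, an inhibitor of the growth kinase mTORC1, rested on 25 and 10 UMIs, and the interval of its ratio, 0.87 to 4.39, included 1. P4ha1 had 126 and 113 CPM.

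**Figure D2:**
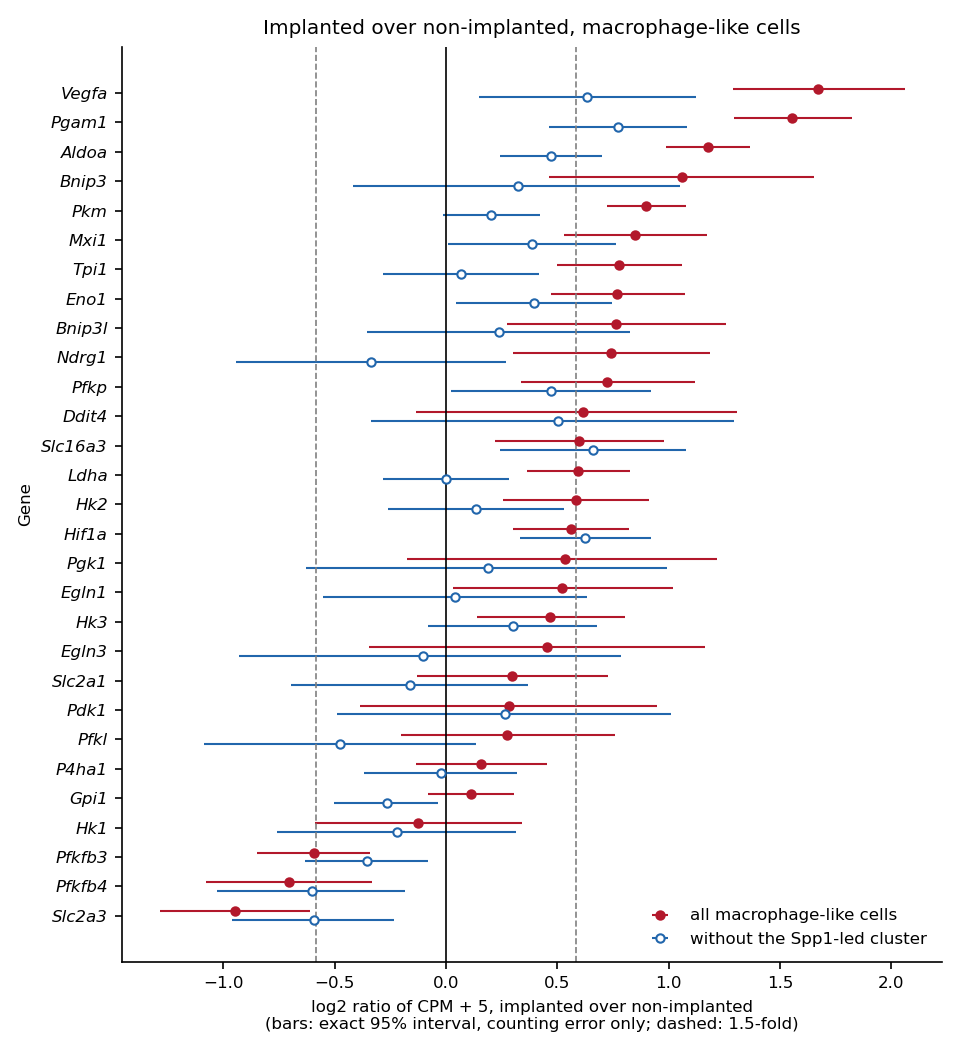
Log2 ratio of CPM + 5, implanted over non-implanted, for the 29 counted genes in macrophage-like cells (filled) and in the same class without its Spp1-led cluster (open), with exact 95% intervals for counting error and dashed lines at 1.5-fold. Vegfa and Pgam1 are at the top at 1.67 and 1.55, Slc2a3 is at the bottom at -0.95, and most open points lie closer to 0 than the filled ones.

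Much of this difference sat in 1 cluster that the non-implanted library hardly held. A cluster with Spp1, Mmp12 and Gpnmb among its leading genes had 62 implanted cells and 1 non-implanted cell, 22.5% of the implanted macrophage-like cells and 38.0% of their UMIs. Without it, 213 implanted and 229 non-implanted macrophage-like cells remained, and 4 of 28 counted genes were at least 1.5-fold higher and 2 lower, beside 6.02% and 6.52% of all genes. The median log2 ratio of the 28 genes was then 0.20.

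Of the 14 genes, 3 were still higher and Hif1a, just under the limit in the whole class, was now past it: Pgam1 at 180 against 103 CPM (ratio 1.74, 1.39 to 2.18), Slc16a3 at 92.2 against 56.6 CPM (1.63, 1.20 to 2.23), Vegfa at 64.8 against 39.98 CPM (1.62, 1.12 to 2.36) and Hif1a at 190.0 against 121 CPM (1.56, 1.27 to 1.93). The largest macrophage-like cluster, led by H2-Aa and other MHC class II genes, alone had these 4 of 28 counted genes higher and 3 lower (Slc2a3, Pfkl and Pfkfb4), beside 7.29% and 7.03% of all genes, and Pgam1 had 175 and 98.3 CPM there. In the shallow cluster, where 14 genes were counted, Hk3 and Mxi1 were higher and Slc2a3 and Pfkfb4 lower, beside 12.3% and 16.3% of all genes. In the whole class without the Spp1-led cluster, Slc2a3 (81.3 and 125 CPM) and Pfkfb4 (58.5 and 91.3 CPM) were still lower. Ldha, at 166 and 166 CPM, and Tpi1, at 109 and 103 CPM, were nearly level, and Ndrg1, at 26.5 and 34.7 CPM, turned to a negative log2 ratio of -0.33 (-0.94 to 0.27).

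Within the implanted library, where both clusters were processed together, the Spp1-led cluster (62 cells) was set against the H2-Aa-led cluster (122 cells), a comparison chosen after the levels had been seen. Of 28 counted genes 14 were at least 2-fold higher in the Spp1-led cells and 0 were lower, beside 5.93% and 11.8% of all 7980 genes, with a median log2 ratio of 0.99 against -0.15 for all genes. Vegfa had 288 CPM in the Spp1-led and 63.3 CPM in the H2-Aa-led cells, a ratio of 4.54 (3.38 to 6.17). Ndrg1 had 134 and 27.4 CPM, a ratio of 4.89 (3.13 to 7.88), and Bnip3 65.6 and 14.8 CPM, a ratio of 4.44 (2.39 to 8.76). For Ndrg1, 1 cell held 40% of the 90 UMIs of the Spp1-led cluster, and only 18 of its 62 cells had any.

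The enzymes spread over a wide range. Pfkl had 77.5 and 21.1 CPM, a ratio of 3.67 (2.15 to 6.49). Aldoa (842 and 271 CPM), Tpi1 (313 and 101), Pgam1 (533 and 175) and Pkm (818 and 280) had ratios between 2.92 and 3.10. Ldha had 398 and 155 CPM, Hk2 177 and 85.5 CPM, Eno1 219 and 107 CPM and Slc2a1 89.4 and 41.2 CPM. Slc2a3, at 31.3 and 52.8 CPM, was not among the higher genes, and Slc16a3, at 83.4 and 70.7 CPM, differed little. Gpi1 lay just under the limit with 411 and 207 CPM, Pfkp had 115 and 70.7 CPM and Hk1 a ratio of 1.06 (0.64 to 1.74), and Hif1a was nearly level at 201 and 192 CPM. The higher genes thus ran from Slc2a1 and Hk2 to Ldha, without the lactate exporter and without Hif1a itself.

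**Figure D3:**
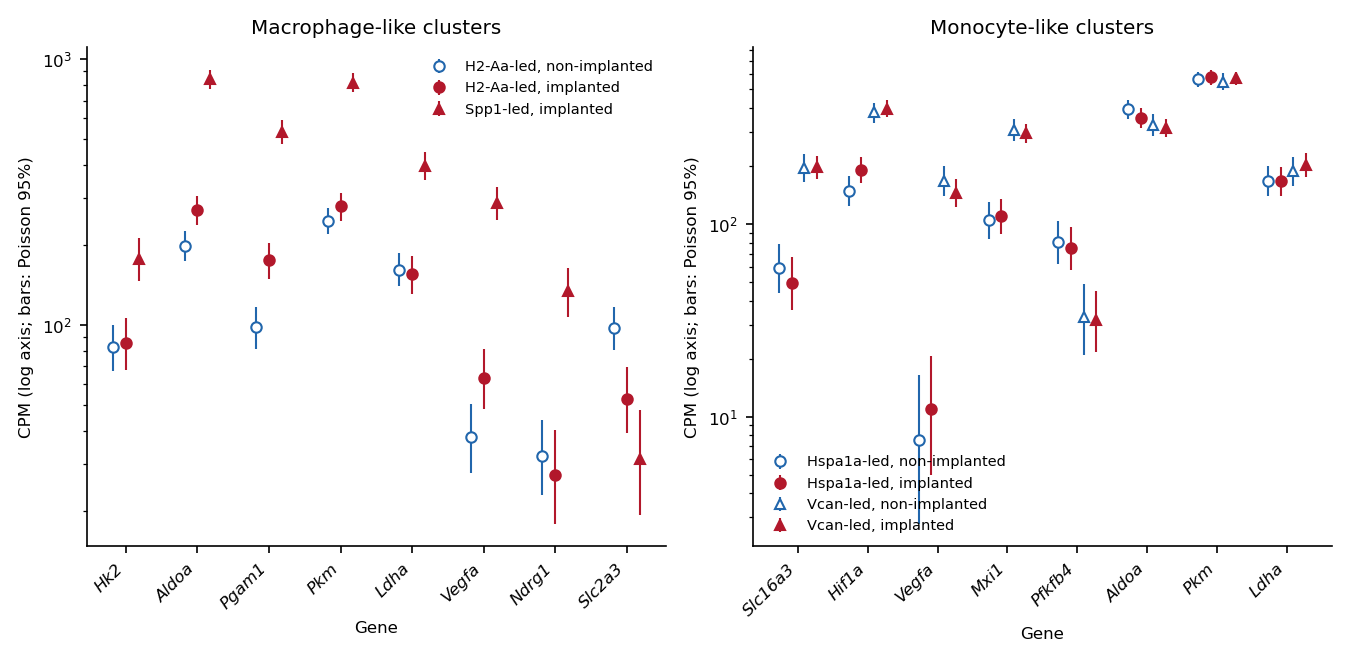
CPM on a log axis with 95% Poisson intervals for 8 genes each in macrophage-like clusters (left) and monocyte-like clusters (right), implanted in red and non-implanted in blue. On the left the Spp1-led triangles lie above both H2-Aa-led points for every gene shown but Slc2a3, and on the right Vegfa separates the Vcan-led from the Hspa1a-led cluster in both libraries.

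In the other 3 large classes few of the genes differed between the libraries. In monocyte-like cells 0 of 29 counted genes were at least 1.5-fold higher in the implanted library and 1 was lower, beside 2.84% and 2.35% of all genes, and the median log2 ratio was 0.02. That gene, P4ha1, had 58.9 and 93.7 CPM, a ratio of 0.63 (0.50 to 0.79). Its difference sat in the Hspa1a-led monocyte-like cluster, at 61.7 and 135 CPM, while the Vcan-led cluster had 53.5 and 53.2 CPM, and without the cell richest in the gene in each library its log2 ratio was -0.53, inside 1.5-fold.

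In neutrophil-like cells 0 of 30 counted genes were higher and 2 were lower in the implanted library, beside 1.37% and 0.542% of all genes. Egln3, the hydroxylase that HIF-1 itself is known to induce, had 11.02 and 28.4 CPM, a ratio of 0.39 (0.28 to 0.53). P4ha1 had 5.80 and 12.96 CPM, on 30 and 77 UMIs, a ratio of 0.45 (0.28 to 0.69). The Egln3 difference was present in the Stfa2l1-led (12.5 and 42.4 CPM), Il1b-led (30.4 and 48.4 CPM) and Antxr2-led clusters (8.71 and 32.01 CPM), and had the opposite direction in the Mmp8-led cluster (13.55 and 8.92 CPM). In granulocyte precursor-like cells 0 of 30 genes were past 1.5-fold in either direction, beside 1.03% and 0.171% of all genes. Pgk1 came closest, with 21.1 and 12.7 CPM and a log2 ratio of 0.56. Vegfa, which differed 3.43-fold in macrophage-like cells, had 74.5 and 81.9 CPM in monocyte-like, 118 and 116 CPM in neutrophil-like and 32.3 and 33.9 CPM in precursor-like cells.

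The neutrophil lineage showed a change of pattern that was repeated in both libraries. Neutrophil-like cells over granulocyte precursor-like cells had 6 of 30 genes at least 2-fold higher in both libraries (Slc2a1, Slc2a3, Slc16a3, Hif1a, Vegfa and Bnip3) and 1 lower (Tpi1), beside 8.08% and 12% of all 12245 genes. Transporters, the HIF subunit and 2 targets were thus higher, and none of the enzymes was. Over all genes the median log2 ratios in the 2 libraries were -0.20 and -0.18. Slc16a3 had 590.1 and 551 CPM in neutrophil-like and 72.2 and 67.9 CPM in precursor-like cells, log2 ratios of 2.95 and 2.93. Hif1a had 240.0 and 245 against 40.1 and 37.3 CPM, log2 ratios of 2.44 and 2.56. Slc2a1 had 58.4 and 78.6 against 11.5 and 10.96 CPM. Bnip3 had 25.7 and 30.5 against 7.82 and 4.75 CPM.

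Clusters of the lineage were put in order by their neutrophil minus precursor marker score, from Elane-led (promyelocyte genes) through Top2a-led (cycling) and Ly6g-led cells to neutrophil-like clusters that end with an Il1b-led and a Cxcl2-led one. Tpi1 went from 298 and 257 CPM in the Elane-led cluster to 97.4 and 112 CPM in the Ly6g-led and 54.1 and 42.6 CPM in the Cxcl2-led cluster. Gpi1 went from 1084 and 1074 CPM in the first to 316 and 316 CPM in the last. Ldha did not follow that course: it stood at 404 and 400 CPM in the Elane-led, 486 and 468 CPM in the Ly6g-led and 129 and 158 CPM in the Stfa2l1-led cluster. Between the Ly6g-led and Elane-led clusters, Slc2a3 was at least 2-fold higher and Tpi1 and Egln1 lower in both libraries (1 and 2 of 29 genes, beside 4.77% and 20.8% of all genes).

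The 2 transporters were highest in different clusters of the lineage. Slc2a3 had 1145 and 1115 CPM in the Stfa2l1-led cluster, 947 and 906 CPM in the Mmp8-led one, of which it is a leading gene, and 338 and 389 CPM in the Cxcl2-led one, and Slc16a3 had 1191 and 1140 CPM in the Antxr2-led cluster, whose leading genes include Slc16a3 itself. Vegfa stood at 18.4 and 24.1 CPM in Ly6g-led, 98.1 and 113 CPM in Stfa2l1-led and 331 and 353 CPM in Cxcl2-led cells. Over the Ly6g-led precursors, the Stfa2l1-led cluster had the same 6 genes at least 2-fold higher as the class comparison and Ldha lower (6 and 1 of 29 genes, beside 10.8% and 9.5% of all genes). The Cxcl2-led over the Stfa2l1-led cluster had Hk1 and Vegfa higher and Slc2a3 lower (2 and 1 of 28 genes, beside 7.01% and 1.59%). Hk1 had 85.6 and 73.0 CPM in the Cxcl2-led and 28.9 and 32.6 CPM in the Stfa2l1-led cluster. The cluster pairs were chosen with their values in view.

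**Figure D4:**
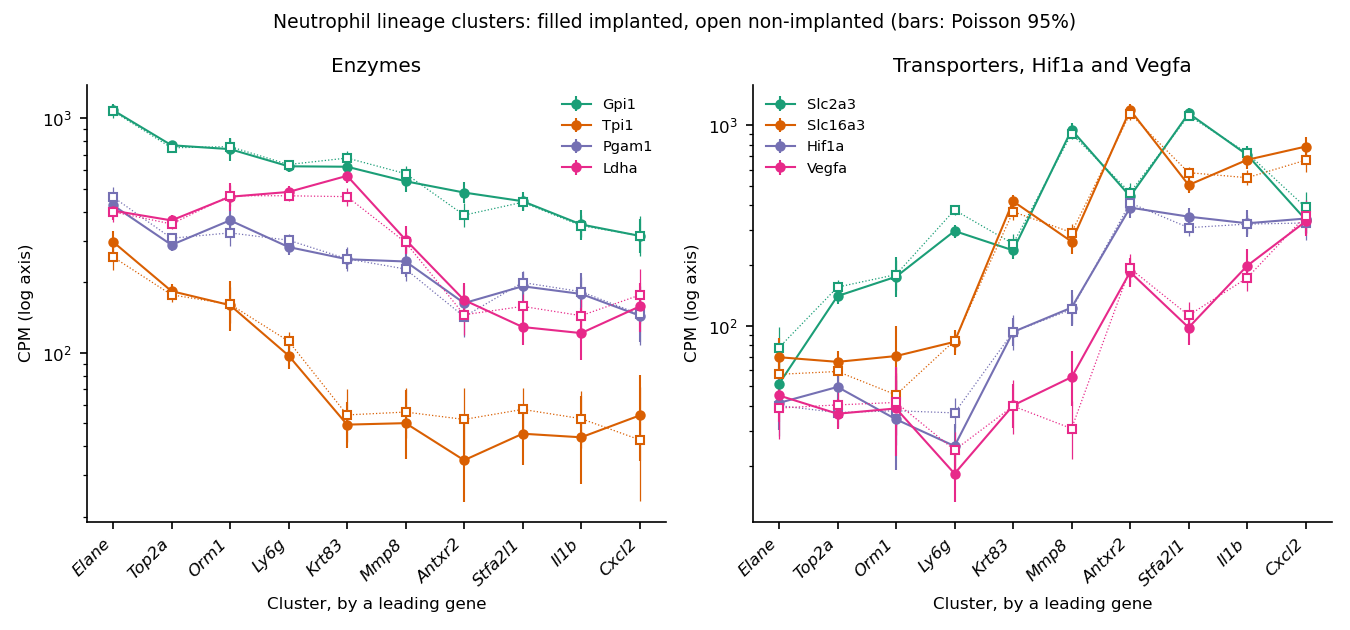
CPM on a log axis, with 95% Poisson intervals, of 4 enzymes (left) and 4 other genes (right) in 10 neutrophil lineage clusters, each named by 1 of its leading genes and ordered by the neutrophil minus precursor marker score. The lines of the 2 libraries run together, Gpi1 and Tpi1 go down from left to right, Ldha drops after the Krt83-led cluster, and Hif1a and Vegfa are low up to the Ly6g-led cluster and high at the right.

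Monocyte-like cells were split by 4 of these genes. The Vcan-led cluster (150 and 110 cells) over the Hspa1a-led cluster (119 and 115 cells) had Slc16a3, Hif1a, Vegfa and Mxi1 at least 2-fold higher in both libraries and Pfkfb4 lower, 4 and 1 of 29 genes beside 2.12% and 2.41% of all genes. Vegfa had 146 CPM against 10.9 CPM in the implanted and 168 CPM against 7.57 CPM in the non-implanted library, ratios of 13.4 (6.86 to 29.8) and 22.2 (9.90 to 61.6). Slc16a3 had 197 against 49.6 CPM and 196 against 59.3 CPM, and Hif1a 397 against 191 CPM and 379 against 149 CPM. No enzyme of the glycolytic chain was 2-fold apart in both libraries, but they did not all match. Pkm had 570 against 578 CPM and 548 against 563 CPM, while Tpi1 was at 72.4 against 139 CPM and 70.9 against 164 CPM, ratios of 0.52 (0.38 to 0.70) and 0.43 (0.31 to 0.60). Pfkp was at 175 against 102 CPM and 183 against 124 CPM, ratios of 1.73 (1.32 to 2.27) and 1.48 (1.13 to 1.94). The third monocyte-like cluster, led by Adgre4 and Ace, had 252 and 275 CPM of Slc2a3 beside an S100a8 level of 84140 CPM, a neutrophil transcript, against 13.9 and 15.0 CPM of Slc2a3 in the Vcan-led cluster with 1651 CPM of S100a8. The part of neutrophil transcripts in that Slc2a3 level was not tested.

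Between macrophage-like and monocyte-like cells, 0 of 29 genes were 2-fold apart in both libraries in either direction, beside 5.49% and 2.34% of all genes. The libraries differed here, with median log2 ratios of 0.14 (implanted) and -0.28 (non-implanted), beside -0.07 and -0.02 for all genes. Some genes passed 2-fold in a single library. In the non-implanted one, Mxi1 (-1.41), Pfkp (-1.28), Pgam1 (-1.25), Slc16a3 (-1.14), Eno1 (-1.14), Bnip3l (-1.08) and Pkm (-1.07) were lower and only Pfkfb3 (1.12) was higher. In the implanted one, Bnip3 (1.09) and P4ha1 (1.04) were higher and none was lower, and Pgam1 was at 0.55. The share of all genes past 2-fold in a single library was not computed. Over neutrophil-like cells, macrophage-like cells had Pdk1 and P4ha1 higher and Slc2a3 and Slc16a3 lower (2 and 2 of 30 genes, beside 33.3% and 5.03% of all genes). Monocyte-like cells had Tpi1, Egln1 and P4ha1 higher and Slc2a3, Hk3 and Slc16a3 lower (3 and 3 of 30, beside 33% and 4.49%). The median log2 ratio over all genes was 0.70 and 0.75 in the first of these pairs and 0.72 and 0.72 in the second. The counts depended on the scaling. Scaled by edgeR's TMM or by the median of gene ratios, 1 gene was higher and 10 were lower in macrophage-like cells. In monocyte-like cells 1 was higher and 14 were lower. The share of all genes past the fold under these scalings was not computed, so these counts have no background beside them. In CPM, the log2 ratios in macrophage-like over neutrophil-like cells were -3.19 and -2.49 for Slc2a3 and -2.66 and -3.16 for Slc16a3. Over granulocyte precursor-like cells, macrophage-like cells had 5 genes higher and 1 lower (beside 22.8% and 4.53% of all genes) and monocyte-like cells 6 and 2 (beside 22.3% and 4.79%), with Slc2a1, Hif1a and P4ha1 among the higher genes in both.

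The erythroid-like cluster stood apart from the myeloid classes. Over granulocyte precursor-like cells it had 4 of 30 genes at least 2-fold higher in both libraries and 18 lower, beside 22.2% and 13.4% of all genes. Hk1, the hexokinase of red cells, had 216 and 215 CPM against 49.4 and 49.3 CPM, while Hk2 and Slc2a1 had 0 UMIs in both libraries, which allows at most 4.77 and 7.09 CPM at the upper end of the exact Poisson interval. Pkm had 23.3 and 19.2 CPM against 707 and 676 CPM, and Pklr, which encodes the pyruvate kinase of red cells and liver, had 32.3 and 36.5 CPM, against at most 0.75 CPM in the 4 large classes. Bnip3l, needed to clear mitochondria from maturing red cells, had 129 and 117 CPM against 43.8 and 46.0 CPM. For lactate, Slc16a3 had 6.47 and 7.69 CPM, and the other exporter Slc16a1 245 and 204 CPM with its partner Bsg at 1153 and 1045 CPM. Bpgm, which makes the ligand that lowers the oxygen affinity of haemoglobin, had 516 and 373 CPM.

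Osteoclast-like cells, on 11 and 29 cells, held Aldoa at 1118 and 630 CPM and Tpi1 at 544 and 405 CPM, both the highest of the 7 named classes in both libraries. Ldha had 578 and 410 CPM there, highest in the implanted library and beside 413 CPM in precursor-like cells of the non-implanted one. B cell-like cells had Egln3 at 62.7 and 74.5 CPM, the highest of the named classes but on 10 UMIs in 6 cells and 13 UMIs in 3 cells, with 46.2% of the latter in 1 cell. They also held the single Adm UMI of the named classes, at 5.73 CPM.

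Genes around the 31 were read from 6 lists and the nuclear respiratory chain. In macrophage-like cells the median log2 ratio, implanted over non-implanted, was 0.27 for 12 counted other glycolysis genes (1 higher and 0 lower), 0.21 for 10 genes of pyruvate entry into mitochondria (2 and 0), 0.10 for 15 pentose phosphate and glycogen genes (1 and 0), -0.00 for 11 HIF subunits and regulators (0 and 2) and 0.10 for 22 other hypoxia targets (4 and 0). For 85 respiratory chain genes it was 0.10 (2 and 5), and for 18 immediate early and heat shock genes, which respond to tissue dissociation, it was -0.11 (0 and 3). Each of these medians was below the 0.58 of the 29 genes. The counts stand beside 8.47% of all genes higher and 9.25% lower in this class.

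By gene, Mpc1, a subunit of the mitochondrial pyruvate carrier, had 276 and 147 CPM (ratio 1.88, 1.59 to 2.23), and Ldhb, the other lactate dehydrogenase subunit, 49.3 and 23.3 CPM. Bhlhe40, a transcriptional repressor, had 200 and 58.6 CPM (ratio 3.41, 2.66 to 4.42) and Anxa2 523 and 229 CPM. Ero1l, an oxidase of protein folding, had 66.8 and 32.3 CPM, and Nampt, an enzyme of NAD synthesis, 132 and 84.9 CPM. Pgm2 (phosphoglucomutase) had 19.3 and 7.52 CPM, and Pdp1, which activates pyruvate dehydrogenase, 10.8 and 4.51 CPM on 19 and 6 UMIs. Epas1, the gene for another HIF alpha subunit, had 4.53 and 12.8 CPM on 8 and 17 UMIs, and Vhl, whose product removes hydroxylated HIF alpha, 18.7 and 30.8 CPM. The heat shock genes Hspa1a (394 and 866 CPM), Hspa1b (301 and 694 CPM) and Dnajb1 (116 and 212 CPM) were lower in implanted cells. The part of dissociation in these differences was not tested. Of the respiratory chain genes, the 5 past 1.5-fold by most were Ndufb4 (3.40 and 12.0 CPM), Ndufab1 (7.93 and 17.3 CPM), Ndufaf4 (20.9 and 10.5 CPM), Cox7c (110 and 65.4 CPM) and Atp5s (5.10 and 11.3 CPM), most of them on few UMIs.

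In the other comparisons, neutrophil-like over precursor-like cells had 0 of 87 respiratory chain genes higher and 23 lower. Of 24 other hypoxia targets, 7 were higher and 1 lower in this pair, where 8.08% of all genes were higher and 12% lower. Monocyte-like over neutrophil-like cells had 50 of 86 respiratory chain genes higher and 0 lower, where 33% of all genes were higher and 4.49% lower. In monocyte-like cells Bpgm had 22.8 CPM in the implanted and 2.69 CPM in the non-implanted library, beside 1511 and 126 CPM of summed erythroid markers (1 and 4 of 11 at 0), whose part in that difference was not tested. Other list genes past 1.5-fold in monocyte-like cells included Insig2 (20.6 and 10.2 CPM) and, on few UMIs, Ndufaf1, Atp5s and Ndufb4. Cox7c was higher in implanted neutrophil-like (58.4 and 36.7 CPM) and precursor-like cells (116 and 72.9 CPM), and Hspa9 in precursor-like cells (16.2 and 8.89 CPM).

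Shares of cells with a UMI had the direction of the levels in most comparisons given here, but not in all. Vegfa was found in 23.4% and 23.6% of precursor-like but 21.0% and 20.4% of neutrophil-like cells, where its level was higher. Thinned to 1000 UMIs, these shares were 3.32% and 2.41% against 10.8% and 10.1%. Vegfa was found in 62 of 275 implanted (22.5%, exact Clopper-Pearson 17.7 to 27.9) and 23 of 230 non-implanted (10.0%, 6.45 to 14.6) macrophage-like cells, with medians of 4839 and 5088.5 UMIs per cell. In erythroid-like cells, taken as background, the shares were 2.70% and 2.50%, with medians of 7838 and 10924 UMIs per cell. After cells were thinned to 1000 UMIs, leaving out 54 and 36 shallower ones, the macrophage-like shares were 8.60% and 3.61%. Hif1a was found in 49.8% and 33.0% of macrophage-like cells (22.2% and 11.9% after thinning), Pgam1 in 49.1% and 32.6% (17.2% and 10.3%), and Ldha in 52.4% and 44.3% (14.5% and 13.9%). Slc16a3 was found in 73.7% and 71.3% of neutrophil-like cells (medians of 2992.5 and 2942.5 UMIs per cell) and in 46.4% and 43.7% of precursor-like cells (8876 and 8389 UMIs). After thinning these shares were 42.2% and 41.5% against 4.92% and 7.96%. Of the erythroid-like cells, 5.41% and 7.50% had a UMI of the gene before thinning and 1.41% and 0% after it.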

How the data were processed

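Droplet 3' libraries (10x Genomics V2, per the labels' protocols) were deposited as whole-number UMI counts for each gene and barcode, not normalized. The file headers name Cell Ranger 3.0.1. Cell Ranger, Seurat, mm10 and GRCm38 appear in the submitters' processing notes. For the aligner and the annotation, the version is not given in the sources used here. A tissue protocol in the labels concerns other ages and stria vascularis, unlike the series design, and was set aside. Symbols come from the files, and gene models used to look for shared 3' sequence from GENCODE M21.

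Cells with at least 200 genes and at most 10% mitochondrial UMIs were kept (82 implanted and 59 non-implanted failed). The cells with the highest doublet scores, computed with a rewritten form of the Scrublet method, were removed, 0.8% per 1000 deposited barcodes (84 and 102 cells), leaving a median of 4260 and 4160 UMIs. Leiden clustering (leidenalg 0.10.2, resolution 1, 2000 variable genes without the 31 genes, 30 components, 15 neighbours) gave 21 clusters, which were named from marker lists of 21 cell types with at least 3 detected markers. The ending "-like" marks that names were given from transcripts. The score used for naming was chosen with the clusters in view. The members and lists were chosen with earlier results of these data known.

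UMIs were summed per library and class to CPM. Ratios are implanted over non-implanted, and calls used log2 of CPM plus 5 with genes of at least 20 UMIs over both libraries. Folds of 1.5 between libraries and of 2 in both libraries between classes were used, over classes with at least 100 cells in each library. CPM carry exact Poisson intervals, ratios exact conditional intervals and shares exact Clopper-Pearson intervals, all for counting error only. The ratio step was tested on simulated data. Named in full are genes past 1.5-fold in macrophage-like or monocyte-like cells or past 2-fold between classes, and list genes past 1.5-fold, up to 5 a list and class. 1 list gene that met this rule is not reported here. Genes named outside this rule, the cluster pairs and the printed promoters were chosen after their values were seen. Software was pandas 2.3.3, numpy 2.4.6, scikit-learn 1.9.0, scipy 1.17.1 and matplotlib 3.10.9 under Python 3.11.15, with edgeR 4.0.16 (R 4.3.3) for TMM scaling as an alternative.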

Additional observations from a re-analysis of the deposited data

How the results depend on the processing

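No paired analysis was possible because each group is 1 library. In macrophage-like cells the median log2 ratio covered those of the 31 genes that reached the UMI limit, a set that changed between alternatives. This median stayed between 0.44 and 0.72 under every alternative but 1: without the Spp1-led cluster it was 0.20, and the count at least 1.5-fold higher was 4. That count was 9 with a pseudocount of 20 CPM, 8 with cells thinned to 1000 UMIs and 4 at a fold of 2. For these counts and those that follow in this paragraph, the share of all genes past the fold was not computed. The count lower was 1 with 2 times the doublets removed, 1 at resolution 0.5 and 0 at a fold of 2. By gene, Ndrg1 turned to -0.33 without the Spp1-led cluster and Bnip3l to -0.68 in thinned cells. The cause was not tested. In monocyte-like cells the count higher was 1 with a pseudocount of 1 CPM, 1 with 2 times the doublets removed and 2 with cells weighted equally. The count lower there was 0 with a pseudocount of 20 CPM, without the cell with most UMIs of the gene and at a fold of 2, 2 with each library clustered on its own and 4 in thinned cells. In neutrophil-like cells the count lower was 1 with a pseudocount of 20 CPM, with 2 times the doublets removed, with no cell filter, at resolution 2, at a fold of 2 and without the cluster of most unequal share (led by Krt83). In granulocyte precursor-like cells the count higher was 3 with a pseudocount of 1 CPM, 2 with cells weighted equally and 1 in thinned cells.

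Between classes, neutrophil-like over precursor-like cells had 10 genes higher and 3 lower at a fold of 1.5, and 2 lower with a pseudocount of 1 CPM, at resolution 2 or with more variable genes and components. Macrophage-like over neutrophil-like cells had 5 higher and 6 lower at a fold of 1.5, 1 higher with a pseudocount of 20 CPM, 4 lower at resolution 0.5, and 1 higher and 10 lower under TMM or median-ratio scaling. Monocyte-like over neutrophil-like cells had 6 higher and 5 lower at a fold of 1.5, 5 higher with a pseudocount of 1 CPM, 1 higher with one of 20 CPM, and 1 higher and 14 lower under TMM or median-ratio scaling. Macrophage-like over monocyte-like cells had 2 lower at a fold of 1.5 and 1 at resolution 0.5. Under these alternatives between classes the share of all genes was not computed. With ACGTG alone, 57.5% of member promoter windows held the motif, against 19.6% of all windows and 26.3% of windows in the members' middle GC range. The scalings between classes and the runs without the shallow macrophage-like cluster and the S100a8-rich monocyte-like cluster were chosen after seeing the data. Intervals cover counting error only, and with 1 library per group the spread between animals is unknown. Ddit4 rests on 25 and 10 UMIs.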
